A study of Homo sapiens with 6 samples.

Results

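The 8 genes described here encode the parts of the hemidesmosome and chains of its ligand, laminin-332: *ITGA6* and *ITGB4*, *LAMA3* and *LAMB3*, *PLEC* and *DST*, *COL17A1*, and *CD151*. They were chosen by name, and 8 of 8 were among the 12703 genes of the count table. Their RNA was measured in PC3 cells, an established human line from a bone metastasis of prostate cancer. Of the 6 libraries, 3 came from PC3 lines stably carrying a lentivirus with the *GCNT1* open reading frame (GCNT1 OE) and 3 from lines carrying the negative-control lentivirus (control), so both groups hold an integrated vector. *GCNT1* encodes the enzyme that starts core 2 O-glycan branches. The sources used here do not give whether the 3 lines of a group came from separate transductions, so p values measure the spread between these lines, which may be partly technical. The cells are bulk cultures, in which fewer cells of a type and less RNA per cell cannot be told apart.

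A hemidesmosome fastens an epithelial cell to its basement membrane. On the outside, the integrin alpha6beta4 (from *ITGA6* and *ITGB4*) binds laminin-332, a trimer that holds an alpha3 chain (from *LAMA3*) and a beta3 chain (from *LAMB3*). On the inside, the long tail of the beta4 chain binds plectin (*PLEC*), and plectin and the epithelial isoform of dystonin (*DST*, BPAG1e) hold the keratin filaments. Collagen XVII (*COL17A1*) crosses the membrane beside the integrin, and the tetraspanin CD151 gathers laminin-binding integrins into clusters. In the healthy prostate these structures belong to the basal cells that rest on the basement membrane.

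The sequences before the starts of *LAMA3* and *LAMB3* are shown because these genes encode chains of the same trimer and differed in their response. RefSeq (GRCh38.p14) gave 10 transcription starts for *ITGA6*, *LAMA3*, *LAMB3*, *DST* and *COL17A1*, and the 250 bases before each were searched. No start was searched for *ITGB4*, *PLEC* or *CD151*. Capitals mark TGANTCA, the motif that AP-1 (FOS and JUN dimers) is known to bind, which reads the same on both strands. The windows are chr18:23872770-23873019 (plus strand) for *LAMA3*, chr1:209652426-209652675 (minus strand) for the most upstream *LAMB3* start, and chr1:209651375-209651624 (minus strand) for a *LAMB3* start within the gene.
LAMA3: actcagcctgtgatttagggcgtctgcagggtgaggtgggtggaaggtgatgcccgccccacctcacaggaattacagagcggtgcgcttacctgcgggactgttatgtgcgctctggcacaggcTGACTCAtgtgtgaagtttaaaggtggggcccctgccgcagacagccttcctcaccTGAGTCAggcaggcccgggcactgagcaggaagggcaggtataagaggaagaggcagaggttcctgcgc
LAMB3 upstream start: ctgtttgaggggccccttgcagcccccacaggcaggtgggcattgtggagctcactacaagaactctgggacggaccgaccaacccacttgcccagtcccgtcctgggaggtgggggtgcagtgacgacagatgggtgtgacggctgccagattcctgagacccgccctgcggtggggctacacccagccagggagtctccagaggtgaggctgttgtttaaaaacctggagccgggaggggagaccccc
LAMB3 internal start: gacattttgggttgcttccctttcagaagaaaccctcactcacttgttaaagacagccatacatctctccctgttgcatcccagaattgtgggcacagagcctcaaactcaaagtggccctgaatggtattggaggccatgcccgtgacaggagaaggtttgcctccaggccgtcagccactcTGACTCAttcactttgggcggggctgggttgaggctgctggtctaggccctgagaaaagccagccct

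The AP-1 motif began 125 and 69 bases before the *LAMA3* start and 67 bases before the internal *LAMB3* start. It was in 2 of the 10 windows searched and in 6.57% of 35116 promoter windows of the same length. Letters that match the E-box bound by ZEB factors (CAGGTG, either strand, in 17.5% of windows) were found in 3 of the 10 windows, those of *LAMA3*, the upstream *LAMB3* start and 1 *ITGA6* start. In *LAMA3* this match overlaps the AP-1 motif nearer to the start. GGAATG, a TEAD motif, was in 1 of 10 windows against 11.9% of all windows, and GGGCGG, the GC box, in 6 of 10 against 42.6%. These matches describe the letters only, and the count table does not show which start the cells used.

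The targeted gene was low in every library, and its difference rested on single libraries. *GCNT1* had 9, 13 and 8 reads in control libraries 1 to 3, against 13, 16 and 35 reads in GCNT1 OE libraries 1 to 3. In CPM, which are reads of a gene scaled to library size with edgeR's TMM factors, it was at 0.812 ± 0.202 and 1.59 ± 0.772 (SD, n = 3), a log2 fold change of 0.98 (SE 0.37, edgeR adjusted p = 0.0362). Without GCNT1 OE library 3 the log2 fold change was 0.49 (edgeR adjusted p = 0.269). The edgeR adjusted p was 0.0920 without control library 1 and 0.0944 without control library 3, and DESeq2 gave 0.0821. With limma-voom, the tool of the study, the log2 fold change was 0.88 (limma-voom adjusted p = 0.0488). The paper also assayed GCNT1 in its overexpressing PC3 cells by real-time PCR, sandwich ELISA and immunocytochemistry. Those assays are not part of these counts. Library totals lay between 11392213 and 13825704 counts. Of the epithelial markers, 5 of 5 were in the table, and their summed level was 822 to 869 CPM in controls and 626 to 710 CPM in GCNT1 OE. *KRT8* and *KRT18*, keratins of simple epithelia, lay between 188 and 261 CPM in all 6 libraries. Of the 5 epithelial markers 2 were called, both lower (40% against 19.3% of all genes). *CDH1*, the gene of E-cadherin, was low throughout, at 3.59 ± 0.796 and 1.10 ± 0.168 CPM (SD, n = 3), a log2 fold change of -1.71 (adjusted p = 4.74e-05), and *KRT19* was lower by the value given with the keratins. *EPCAM* was at 5.54 ± 1.12 and 5.91 ± 0.174 CPM (SD, n = 3), with a log2 fold change of 0.09 (adjusted p = 0.645). Of the basal cell markers *KRT5*, *KRT14* and *TP63*, 0 of 3 were in the table, so they were not analysed here. Of markers of other cell types, 1 of 5 fibroblast, 1 of 3 endothelial and 1 of 3 leukocyte genes were in the table, namely *COL1A1* (13.7 to 15.7 CPM in controls, 8.23 to 8.86 in GCNT1 OE), *PECAM1* (1.43 to 1.95 and 3.93 to 5.10 CPM) and *CD68* (83.4 to 94.4 and 80.0 to 89.5 CPM). The part of these marker differences in the results was not tested.

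With GCNT1 overexpression the 8 genes did not move together. *LAMB3* rose 7.20-fold, *ITGB4* fell to a level 3.18-fold lower, and *COL17A1*, which was barely expressed, was higher. *ITGA6*, *PLEC* and *CD151* were lower by amounts under the threshold for a call, and *LAMA3* and *DST* overlapped between groups. A gene was called when its edgeR adjusted p was under 0.05 and its log2 fold change was at least 0.58 in size, the thresholds of the study. Of the 8 genes 3 were called (19.3% of all 12703 genes were), with *LAMB3* and *COL17A1* higher (8.28% of all genes) and *ITGB4* lower (11.1%). By the adjusted p alone 8 of 8 passed, against a background of 57.6% of all genes. Among them 2 were higher (28.3% of all genes) and 6 lower (29.3%). The libraries of the groups did not overlap for 6 of the 8 genes (62.5% of all genes), 4 of them lower (31.6%) and 2 higher (30.9%). The median log2 fold change was -0.36 over the 8 genes and 0.00 over all genes.

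**Figure D1:**
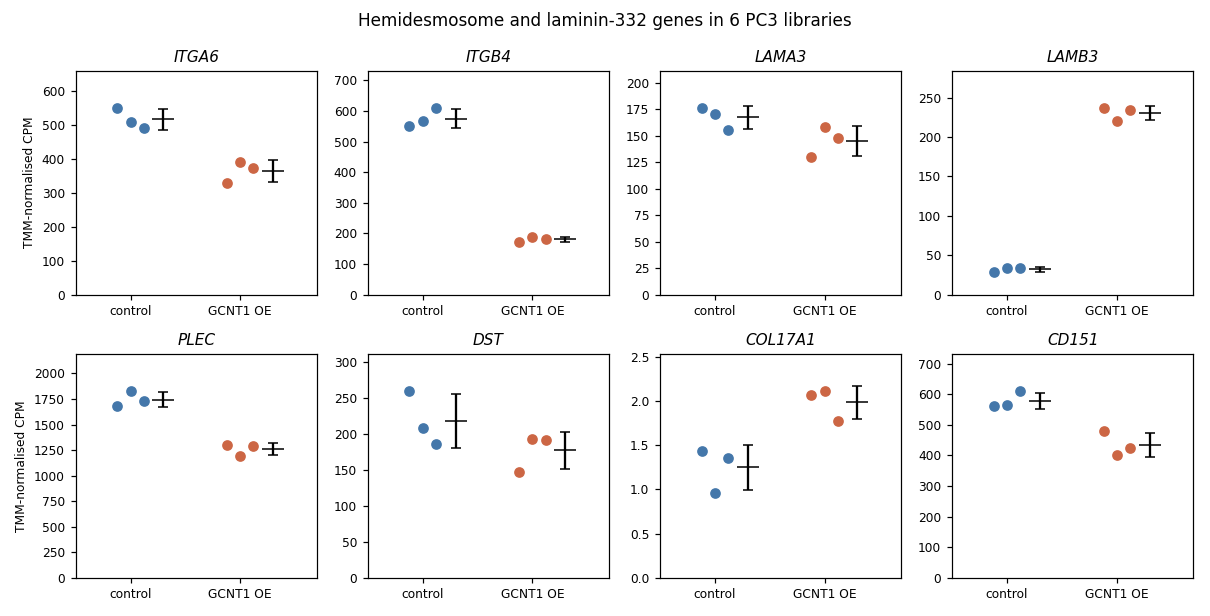
TMM-normalised CPM (y axis, from 0) of each hemidesmosome and laminin-332 gene in the 3 control and 3 GCNT1 OE libraries. Points are libraries, and the black marks are group means with SD. *LAMB3* lies at 28.4 to 34.0 CPM in controls and 220 to 237 CPM in GCNT1 OE, *ITGB4* at 549 to 610 and 173 to 188 CPM, while *LAMA3* and *DST* overlap between groups.

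The receptor genes were lower by unequal amounts. *ITGB4* (chromosome 17, 75721328 to 75757818 on hg38) stood at 549, 567 and 610 CPM in control libraries 1 to 3 and at 173, 188 and 181 CPM in GCNT1 OE libraries 1 to 3. Every GCNT1 OE library was thus far below every control library, and the spread within each group was small beside the gap. The means were 575 ± 31.0 and 181 ± 7.75 CPM (SD, n = 3), with a log2 fold change of -1.67 (SE 0.05, adjusted p = 3.49e-11). *GALK1*, the galactokinase gene, overlaps the span of *ITGB4* on the opposite strand with no shared exon and was at 27.8 ± 0.979 and 20.1 ± 2.60 CPM (SD, n = 3). It was also lower, without overlap of the groups, with a log2 fold change of -0.47 (adjusted p = 0.000650), under the threshold for a call.

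*ITGA6*, the partner chain (chromosome 2, 172427354 to 172506459), was at 550, 510 and 491 CPM in controls and at 328, 392 and 374 CPM in GCNT1 OE. The groups did not overlap, but the log2 fold change of -0.50 (SE 0.06, adjusted p = 2.11e-05) stayed under the threshold for a call. Antisense non-coding genes overlap its exons, and the strand setting of the counting is not given in the sources used here.

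Since the alpha6 and beta4 chains pair with each other, their ratio was taken within each library. The ratio of *ITGB4* to *ITGA6* CPM was 0.999, 1.11 and 1.24 in controls and 0.528, 0.481 and 0.484 in GCNT1 OE. All 3 GCNT1 OE libraries lay below all 3 controls. The log2 ratio was 0.16 ± 0.16 in controls and -1.01 ± 0.08 in GCNT1 OE (SD, n = 3), a difference of -1.16 (SE 0.10, exact two-sided permutation p = 0.10). This is the smallest p that 3 against 3 libraries allow, and it was 0.133 after Benjamini-Hochberg adjustment over the 4 exact tests of ratios. Of these, 3 were planned, and the ratio with *ITGB1* was added after the values had been seen.

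The alpha6 chain can also pair with the beta1 chain, and *ITGB1* had 1628 ± 102 CPM in controls and 1654 ± 113 CPM in GCNT1 OE (SD, n = 3), a log2 fold change of 0.02 (SE 0.06, adjusted p = 0.757). The log2 ratio of *ITGA6* to *ITGB1* was -1.66 ± 0.05 in controls and -2.18 ± 0.04 in GCNT1 OE (SD, n = 3), a difference of -0.53 (SE 0.04, exact permutation p = 0.10). *ITGA3*, whose product pairs with beta1 to form the other main receptor of laminin-332, was higher in each GCNT1 OE library, at 803 ± 38.5 and 963 ± 36.3 CPM (SD, n = 3), with a log2 fold change of 0.26 (SE 0.05, adjusted p = 0.000388), under the threshold for a call.

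**Figure D2:**
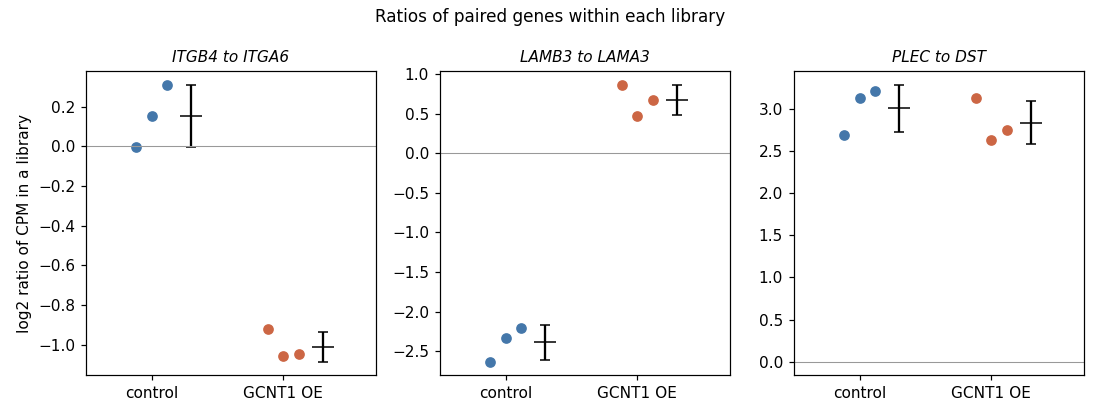
Log2 ratio of CPM (y axis) within each of the 6 libraries for *ITGB4* to *ITGA6*, *LAMB3* to *LAMA3* and *PLEC* to *DST*. Points are libraries, black marks are group means with SD, and the grey line marks equal CPM. The first ratio is lower and the second higher in all 3 GCNT1 OE libraries, and the third overlaps between groups.

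The ligand chains moved apart. *LAMB3* (chromosome 1, 209614870 to 209652425, minus strand) was at 28.4, 34.0 and 33.7 CPM in controls and at 237, 220 and 235 CPM in GCNT1 OE. The groups were separated by a gap many times the spread within either. The means were 32.0 ± 3.11 and 231 ± 9.08 CPM (SD, n = 3), with a log2 fold change of 2.85 (SE 0.07, adjusted p = 3.27e-12). The motif matches shown above are those before 2 of its 3 RefSeq starts.

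*LAMA3* (chromosome 18, 23689453 to 23956222) was at 176, 171 and 155 CPM in controls and at 130, 158 and 147 CPM in GCNT1 OE, with a log2 fold change of -0.20 (SE 0.07, adjusted p = 0.0260). The groups overlapped, since GCNT1 OE library 2 was above control library 3. Refits with edgeR gave adjusted p values above 0.05 without control library 1 (0.110), control library 2 (0.0918), GCNT1 OE library 1 (0.0683) or GCNT1 OE library 3 (0.0600). Without GCNT1 OE library 1 the log2 fold change was -0.13. *LAMA3* has a long and a short transcript form from separate starts, and the window printed above precedes the start of the short form. The counts do not separate the forms.

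The ratio of *LAMB3* to *LAMA3* CPM was 0.162, 0.199 and 0.217 in controls and 1.82, 1.39 and 1.59 in GCNT1 OE. On the log2 scale it differed by 3.06 between groups (SE 0.17, exact permutation p = 0.10). The groups did not overlap, and *LAMB3* went from the lower to the higher CPM of the pair in all 3 GCNT1 OE libraries.

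Levels of different genes were compared per kb of exon (all exons of the gene in GENCODE 44, merged). In controls *LAMB3* (6.89 ± 0.668 CPM per kb) was below *LAMA3* (11.5 ± 0.746), with no overlap. In GCNT1 OE the order was turned around, with *LAMA3* at 10.03 ± 0.984 and *LAMB3* at 49.6 ± 1.95 CPM per kb (SD, n = 3). Both orders were the same with the length of the MANE Select transcript in place of merged exons. The receptor chains were close in controls, *ITGB4* at 85.1 ± 4.58 and *ITGA6* at 77.4 ± 4.51 CPM per kb, with overlapping libraries, and apart in GCNT1 OE, at 26.7 ± 1.15 and 54.6 ± 4.99 CPM per kb (SD, n = 3).

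**Figure D3:**
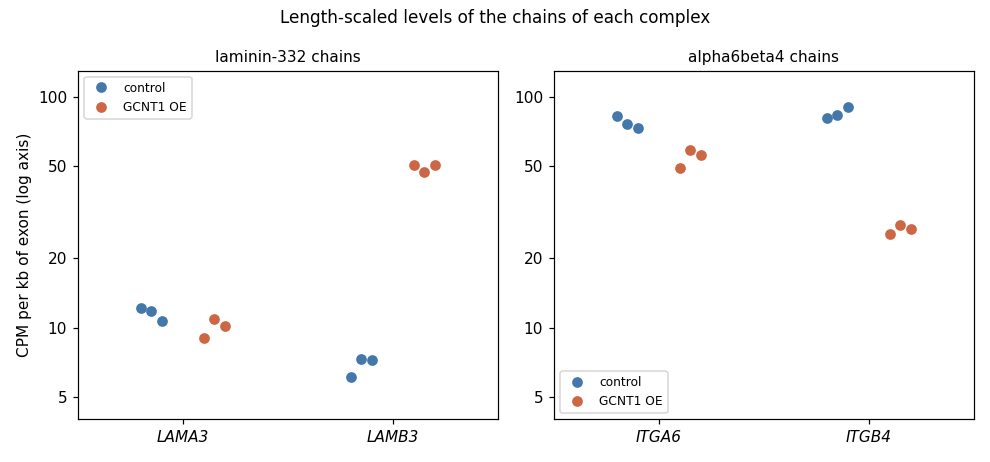
CPM per kb of merged exon (y axis, log scale) of the laminin-332 chain genes (left) and the alpha6beta4 chain genes (right), 1 point per library, control in blue and GCNT1 OE in orange. *LAMB3* lies below *LAMA3* in controls (mean 6.89) and above it in GCNT1 OE (mean 49.6), and *ITGB4* drops below *ITGA6*.

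Across the 8 genes, the order per kb in controls was *CD151* (149 ± 6.71 CPM per kb), *PLEC* (103 ± 4.44), *ITGB4*, *ITGA6*, *LAMA3*, *LAMB3*, *DST* (4.52 ± 0.779) and *COL17A1* (0.179 ± 0.0358). In GCNT1 OE it was *CD151* (111 ± 10.4), *PLEC* (74.3 ± 3.35), *ITGA6*, *LAMB3*, *ITGB4*, *LAMA3*, *DST* (3.68 ± 0.532) and *COL17A1* (0.284 ± 0.0266, SD, n = 3). *LAMB3* moved up to *ITGA6*, with overlapping libraries. With MANE Select lengths, *DST* (8.81 ± 1.52 CPM per kb) stood above *LAMB3* (7.98 ± 0.774) in controls, so this pair had no fixed order.

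Neither linker to the keratin filaments was called. *PLEC* (chromosome 8, 143915153 to 143976734) was at 1677, 1825 and 1726 CPM in controls and at 1296, 1196 and 1294 CPM in GCNT1 OE. The groups did not overlap, with a log2 fold change of -0.47 (SE 0.05, adjusted p = 2.68e-06), under the threshold for a call.

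*DST* (chromosome 6, 56457987 to 56954830) was at 259, 208 and 186 CPM in controls and at 147, 192 and 191 CPM in GCNT1 OE. The groups overlapped, and control library 1 stood above and GCNT1 OE library 1 below the rest. The log2 fold change was -0.30 (SE 0.11, adjusted p = 0.0386). Without control library 1 it was -0.14 (edgeR adjusted p = 0.236), and without GCNT1 OE library 1 it was -0.18 (edgeR adjusted p = 0.0873). Without control library 2 the adjusted p of the edgeR fit was 0.0635. DESeq2 gave an adjusted p of 0.174. *DST* also makes neuronal and muscle isoforms, and the gene counts do not show how much was the epithelial isoform BPAG1e.

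The ratio of *PLEC* to *DST* CPM was 6.47, 8.79 and 9.27 in controls and 8.79, 6.22 and 6.76 in GCNT1 OE. These overlapped, and the difference on the log2 scale was -0.17 with a standard error of 0.22 (exact permutation p = 0.50). Leaving out 1 library moved it to -0.33 without control library 1, -0.32 without GCNT1 OE library 1, -0.11 without control library 2, -0.07 without control library 3 and -0.07 without GCNT1 OE library 2. Among the 3 ratios that had been planned, it was the one without separation of the groups. Control library 1 was highest in its group and GCNT1 OE library 1 lowest in its group for *ITGA6*, *LAMA3* and *DST*. *PLEC* ran the other way, with control library 1 lowest and GCNT1 OE library 1 highest. The part of these libraries in the smaller differences was not tested.

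*COL17A1* (chromosome 10, 104031286 to 104085880) had only 18, 12 and 16 reads in controls and 24, 29 and 25 reads in GCNT1 OE. The groups did not overlap, at 1.25 ± 0.250 and 1.99 ± 0.186 CPM (SD, n = 3), and the log2 fold change was 0.66 (SE 0.24, adjusted p = 0.0302). At so few reads the call rested on single libraries. It was lost without control library 2 (log2 fold change 0.50, edgeR adjusted p = 0.133), and the edgeR adjusted p was 0.0625 without GCNT1 OE library 1 and 0.0820 without GCNT1 OE library 2. DESeq2 gave an adjusted p of 0.146 for this gene.

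*CD151* (chromosome 11, 832887 to 839831) was at 563, 566 and 610 CPM in controls and at 479, 400 and 423 CPM in GCNT1 OE. The groups did not overlap, with a log2 fold change of -0.42 (SE 0.06, adjusted p = 7.10e-05), under the threshold for a call. *POLR2L*, a subunit gene of RNA polymerase II, shares exon sequence with *CD151* on the opposite strand. It was at 297 ± 32.2 and 275 ± 27.7 CPM (SD, n = 3), with overlapping groups.

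**Figure D4:**
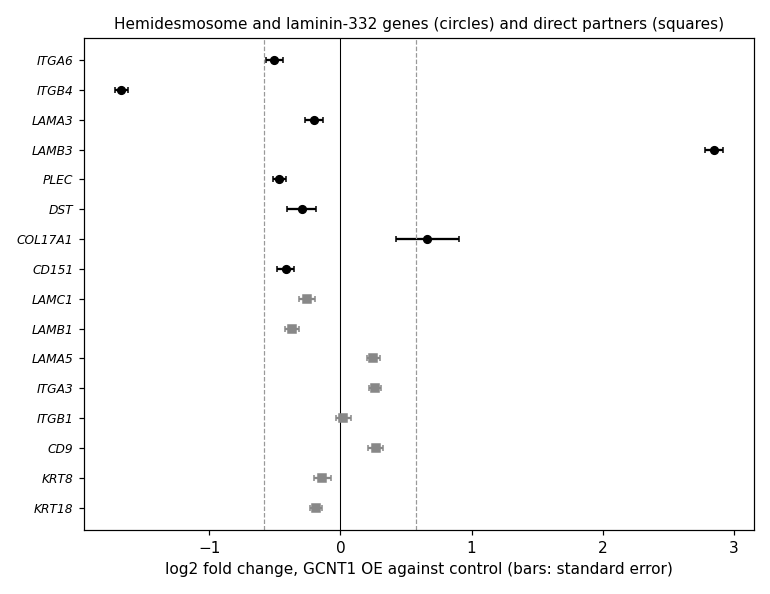
Log2 fold change of GCNT1 OE against control (x axis) with its standard error for the 8 hemidesmosome and laminin-332 genes (circles) and 8 direct partners (squares). Dashed lines mark 0.58 in either direction. *LAMB3* (2.85), *ITGB4* (-1.67) and *COL17A1* (0.66) lie beyond them, and the partners lie between them.

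The neighbourhood of each gene on its chromosome moved little. The 50 nearest analysed genes had median log2 fold changes between -0.15 (around *PLEC*) and 0.16 (around *LAMB3*). Relative to these medians the log2 fold change was 2.69 for *LAMB3* and -1.61 for *ITGB4*. Among the 3 genes whose profile over the 6 libraries was closest to that of *ITGB4* were *ANO1* and *PLPP3* (root mean square distance of centred log2 CPM 0.0596 and 0.0757), with log2 fold changes of -1.58 and -1.54. Closest to *LAMB3* were *TAF7*, *CEP15* and *ZNF518A* (0.0907, 0.0962 and 0.1004), with log2 fold changes of 2.74, 3.04 and 3.05. These distances mostly measure the size of the group difference.

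Genes that work with the hemidesmosome were counted in 8 lists, with 129 of 154 listed genes in the table, of which 30 were called, 12 higher and 18 lower. This was 23.3%, near the 19.3% of all genes that were called, and the median log2 fold change was -0.17. Of the basement membrane genes 4 of 22 were called (2 higher, 2 lower), which is 18.2% against 19.3% of all genes. By the adjusted p alone 17 passed, 8 higher and 9 lower (77.3% against 57.6% of all genes). *HSPG2*, which encodes the heparan sulfate proteoglycan perlecan, fell from 406 ± 28.7 to 44.2 ± 3.84 CPM (SD, n = 3), a log2 fold change of -3.20. *COL4A6*, a collagen IV chain, was higher (0.77) and *LAMC3*, the laminin gamma3 chain, lower (-0.63). The laminin chain genes *LAMB1* (-0.37), *LAMC1* (-0.26) and *LAMA5* (0.25) were not called, each with an adjusted p under 0.05 and groups that did not overlap.

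Of the other laminin receptors 5 of 14 were called, 1 higher and 4 lower (35.7% against 19.3% of all genes). *ITGA1*, a collagen and laminin receptor chain, fell from 27.7 ± 3.68 to 1.14 ± 0.319 CPM (SD, n = 3), a log2 fold change of -4.56. *ITGA2*, whose product binds collagen and laminin, had a log2 fold change of -1.02, and *BCAM*, a receptor of the laminin alpha5 chain, of -0.79. In the tetraspanin list 6 of 16 genes were called, 3 in each direction (37.5% against 19.3% of all genes). *TSPAN1* (1.30) and *TSPAN15* (1.14) were higher, and *PTGFRN*, a tetraspanin partner of the immunoglobulin family, was lower (-3.56). *CD9*, a tetraspanin that also binds laminin receptors, was at 103 ± 4.28 and 123 ± 4.11 CPM (SD, n = 3), under the threshold for a call, opposite in sign to *CD151*.

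In the list of keratins, which the linkers hold, and vimentin, 5 of 8 genes were called, 3 higher and 2 lower (62.5% against 19.3% of all genes). *KRT7* rose from 26.0 ± 3.27 to 81.7 ± 14.7 CPM (SD, n = 3), a log2 fold change of 1.65, *KRT80* had 1.32 and *KRT19* -0.68. The log2 fold change was -0.14 for *KRT8* (adjusted p = 0.0829) and -0.18 for *KRT18* (adjusted p = 0.00504). Of the other plakins, relatives of plectin and dystonin, 0 of 4 were called by edgeR, by limma-voom or by DESeq2, while 3 had an unadjusted edgeR p under 0.05. By the adjusted p alone 2 of 4 passed, both lower, against 57.6% of all genes in either direction and 29.3% lower.

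In the list of alpha6beta4 signalling genes 3 of 27 were called (11.1% against 19.3% of all genes), all 3 lower, a share equal to the 11.1% of all genes called lower. They were *SHC1*, the adaptor that binds the phosphorylated beta4 tail (-0.61), *IRS2*, an adaptor of insulin receptors (-1.18), and *LYN*, a SRC family kinase (-0.63). Among focal adhesion linkers 4 of 24 were called, 1 higher and 3 lower (16.7% against 19.3% of all genes). By the adjusted p alone 17 of the 24 were lower, beside 29.3% of all genes. *ZYX*, zyxin, had a log2 fold change of -0.83, *TLN2*, talin 2, of -0.83 and *TNS2*, tensin 2, of 0.65. Among epithelial and AP-1 regulators 3 of 14 were called, 2 higher and 1 lower, a share of 21.4%, near the 19.3% of all genes. By the adjusted p alone 10 of these 14 passed, 4 higher and 6 lower (71.4% against 57.6% of all genes). Their median log2 fold change was -0.20. *TFAP2C*, the factor AP-2 gamma, was lower (-0.85), and *ZEB2*, a repressor of epithelial genes (1.40 ± 0.489 and 3.92 ± 0.716 CPM, SD, n = 3), and *FOS*, a part of AP-1 (1.69 ± 0.417 and 3.03 ± 0.624 CPM), were higher at low levels.

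**Figure D5:**
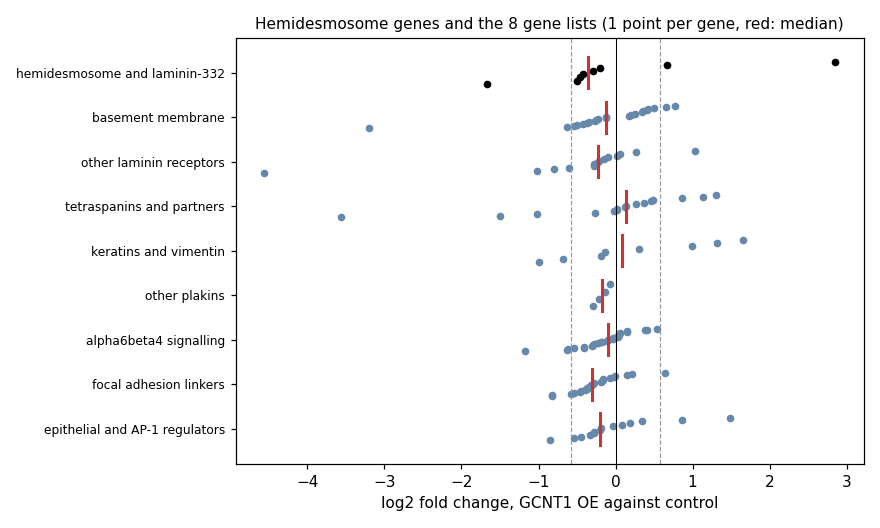
Log2 fold change of GCNT1 OE against control (x axis) for each hemidesmosome and laminin-332 gene (black) and each gene of the 8 lists (blue), with the median of each list in red and dashed lines at 0.58 in either direction. Genes of most lists lie on both sides of 0, and *LAMB3* has the highest value of all the genes plotted (2.85).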

How the data were processed

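Per the study's methods, reads of stranded mRNA libraries were trimmed (Cutadapt), aligned against hg38 (HISAT2) and assigned to genes (featureCounts), and the authors deposited the raw counts per Entrez gene and library, without normalization. The tool versions, the annotation, the low-count filter and the strand setting are not given in the sources used here. Symbols were matched through RefSeq for 12661 of 12703 genes. The counts were fitted over all genes in R 4.3.3 with edgeR 4.0.16 (filterByExpr, which removed none, TMM, quasi-likelihood test of the 2 groups, Benjamini-Hochberg adjustment), and every adjusted p in the text is from this fit unless another tool is named. The study used limma-voom, run here (limma 3.58.1) as an alternative with DESeq2 1.42.0, each single library left out, other scalings and filters, glmTreat and the replicate number as a block. The tests were checked on simulated counts. Libraries of a group differed by more than sampling noise (chi-square per degree of freedom 1.65 to 5.65), so each counted as 1 sample. Precision rested on read counts and on the spread between libraries, and low genes such as *COL17A1* are also limited by counting error.

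Named were the 8 genes, direct partners fixed by name, up to 3 called genes per list with the smallest p and separate groups, and the 3 genes closest to *ITGB4* and *LAMB3*. Partners without values above were not analysed here, and results for 2 genes that this rule also names are not reported here. The genes and lists were chosen with earlier results of these data known. Positions are those of GENCODE 44 on hg38.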

Additional observations from a re-analysis of the deposited data

How the results depend on the processing

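Over 14 alternatives for each of the 8 genes, 112 of 112 fits kept the sign of the log2 fold change and 106 the call, and the exceptions were 6 fits of *COL17A1*. The fit without a filter repeated the main fit, since the filter removed no gene, so it could change neither sign nor call. The glmTreat fit keeps the main log2 fold change, so it could not change a sign. *LAMB3* stayed between 2.78 and 2.91 and *ITGB4* between -1.69 and -1.61. A test against the fold threshold itself (glmTreat) called 1392 genes in place of 2457 and 2 of the 8 genes. With library size alone the adjusted p was 0.107 for *LAMA3* and 0.0958 for *DST*. Libraries with the same replicate number did not deviate together from their group means (mean correlation of deviations -0.128). The mean for different numbers (0.0644) is no separate result, because deviations cancel within a group and it largely follows from the first. With the replicate number as a block 2 of the 8 genes were called, both also called without it, with edgeR adjusted p values of 0.0534 for *COL17A1* and 0.0740 for *DST*, and 2423 genes in all. The block changed no other call among the 8 genes, and paired exact tests of the ratios of *ITGB4* to *ITGA6* and *LAMB3* to *LAMA3* gave p = 0.25, the smallest that 3 pairs allow. Leaving out each library gave 2 to 3 of the 8 genes called.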
